A study of Caenorhabditis elegans with 18 samples.

Results

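The genes described here are the superoxide dismutases sod-1 to sod-5, the catalases ctl-1 to ctl-3 and the peroxiredoxins prdx-2 and prdx-3 of Caenorhabditis elegans. They are 10 of the 39798 genes with a row in the deposited count table, chosen by name through the RefSeq annotation of WBcel235, and all 10 passed the filter on low counts. RNA of whole adults on day 1 of adulthood was sequenced in 3 strains. These were N2 Bristol, the wild type, strain RB711 with the allele ok485 of pqm-1, which the study describes as a null mutant, and strain CF1038 with the allele mu86 of daf-16. Worms either stayed at 20 °C or were placed in a water bath at 35 °C for 1 h and recovered at 20 °C for 2 h. No transgene or other allele is named for any strain, and each group of worms was raised on OP50-1 bacteria. The labels give 3 biological replicates for each of the 6 groups and do not say whether these came from separate cultures, so the p-values measure the spread between these samples. The comparisons ask how the genes changed with heat in each strain and how each mutant differed from N2 at each temperature.

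Superoxide dismutases turn superoxide into hydrogen peroxide, and catalases and peroxiredoxins remove that peroxide. The copper/zinc enzymes are SOD-1 and the minor SOD-5 in the cytosol and SOD-4, which is secreted or bound to membranes, while SOD-2 and SOD-3 are the manganese enzymes of mitochondria. CTL-1 is a cytosolic and CTL-2 a peroxisomal catalase, and ctl-3 encodes a further catalase of the same gene cluster. PRDX-2 is a cytosolic and PRDX-3 a mitochondrial peroxiredoxin, both reduced by thioredoxin. DAF-16 is the FOXO transcription factor at the end of insulin signalling, and sod-3 is widely used as a reporter of its activity. PQM-1 is a zinc finger transcription factor that shares many target genes with DAF-16.

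The comparisons rest on the 12 libraries labelled replicate 2 and 3, with gene-level totals of 18650463 to 33399557 counts. One value column named for a replicate 1 sample (daf-16 at 20 °C) contains lengths of transcripts instead of counts, and the remaining replicate 1 libraries go against their labels in heat shock genes, so all of replicate 1 was left out. With every count column taken by its header name, 0 members were called in any comparison. In the libraries used, the row of pqm-1 stood at 25.1 ± 1.42 CPM (counts per 1000000 of the TMM-scaled library size, mean ± SD, n = 2) in unheated N2 and 11.2 ± 1.87 in unheated pqm-1 mutants. This difference did not pass over all genes (log2 fold change -1.16, adjusted p 0.0586, edgeR quasi-likelihood test). Nor did that between the heated groups (-0.69, adjusted p 0.180). The row of daf-16 stood at 96.8 ± 12.3 CPM in N2 and 106.4 ± 12.2 in daf-16 mutants at 20 °C (n = 2), so this total does not check the allele. The heat shock gene hsp-16.2 was at most 0.425 CPM in the 20 °C libraries used and at least 257.2 CPM in the heated ones. Of the marker lists for intestine, muscle, hypodermis, neurons, germline, oocytes and sperm, unc-15 (muscle) and snb-1 (neurons) were not analysed here, and 0 of the other genes were at 0 in both libraries of any group.

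The reads behind the members differ in how cleanly they belong to 1 gene. For sod-1, sod-2, sod-3 and prdx-3 the deposited counts were whole numbers in all 12 libraries. The counts of ctl-1 were not whole in 11 of 12 libraries, those of ctl-2 in 9 and those of ctl-3 in 10, as estimated counts can be when reads match several genes. The catalase genes are direct neighbours in the order ctl-2, ctl-1, ctl-3 and are close copies. Their values are therefore uncertain one by one and are not 3 separate measurements. The counts of sod-5 were not whole in 2 libraries, and those of sod-4 and prdx-2 in 1 each. Strand was not stated, and sod-1, sod-2, sod-3, sod-4 and ctl-2 overlap annotated genes on the opposite strand, so reads of such partners cannot be told apart. Where a member had several transcript rows (sod-1, sod-4 and ctl-3), these held nearly the same reads, with differences from -0.405% to 4.86% of the count, and the row with the highest mean was used.

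Per length, the members spanned more than 3 orders of magnitude, with prdx-2 highest and sod-5 lowest in every group. On the scale of CPM per kb of coding length, prdx-2 stood at 1127 ± 31.3 (SD, n = 2) in N2 at 20 °C. Next came sod-1 at 445 ± 7.33, prdx-3 at 340.4 ± 1.63 and sod-2 at 205.5 ± 4.32 CPM per kb. The catalases followed, with ctl-2 at 66.6 ± 0.982, ctl-1 at 27.9 ± 0.939 and ctl-3 at 23.03 ± 0.510 CPM per kb. The lowest were sod-4 at 16.3 ± 0.303, sod-3 at 6.66 ± 0.729 and sod-5 at 0.659 ± 0.276 CPM per kb. In N2 at 20 °C no neighbours in this order had overlapping values. Over all 12 libraries the ranges of 3 pairs of neighbours overlapped: sod-1 with prdx-3, ctl-1 with ctl-3, and ctl-3 with sod-4. Of the dismutase level per length, sod-1 made up 62.9 to 66.0% and sod-2 made up 29.0 to 32.6% over the 12 libraries, so the cytosolic and the mitochondrial housekeeping enzymes carried nearly all of it in every group. The members together took 0.144 to 0.162% of all gene counts.

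**Figure D1:**
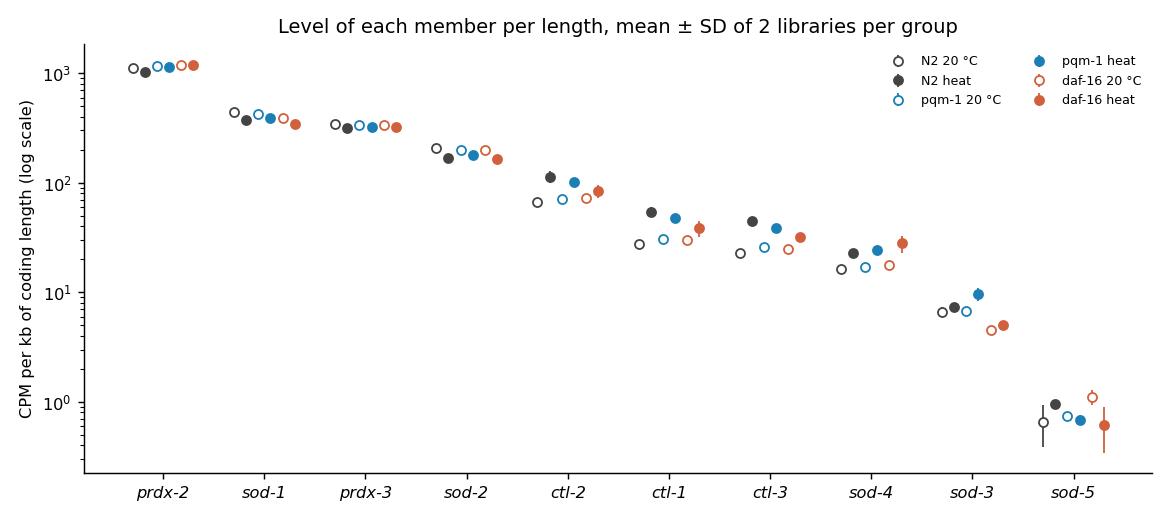
Level of each member in CPM per kb of coding length (log axis), as mean ± SD of 2 libraries for each of the 6 groups, open points at 20 °C and filled points after heat. The order runs from prdx-2 to sod-5, and in N2 the catalases stand higher after heat than at 20 °C.

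The 3 catalase genes rose with heat in N2. The level of ctl-1 was 42.6 and 40.6 CPM in the replicate 2 and 3 libraries at 20 °C and 75.0 and 87.8 CPM after heat. That of ctl-2 was 99.1 and 101.1 CPM against 156.3 and 185.2, and that of ctl-3 was 36.0 and 34.9 CPM against 63.8 and 73.4. Heated and unheated libraries did not overlap for any of the 3 genes, and 33.9% of all genes tested were also higher without overlap. The log2 fold change was 0.97 ± 0.11 (SE) for ctl-1, 0.77 ± 0.11 for ctl-2 and 0.95 ± 0.09 for ctl-3, a rise of 1.96-fold, 1.71-fold and 1.94-fold (edgeR quasi-likelihood test with Benjamini-Hochberg adjustment over 14278 genes, adjusted p 5.79e-05, 0.000277 and 2.1e-05). Without any 1 of the 12 libraries the 3 genes stayed past the threshold in N2. In these bulk samples a change in the number of cells that use a gene and a change in RNA per cell cannot be told apart.

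In pqm-1 mutants the catalases also rose. There ctl-1 went from 46.4 and 45.4 CPM to 74.2 and 68.0, a log2 fold change of 0.63 ± 0.11 (adjusted p 0.00117, edgeR). The values were 0.50 ± 0.11 for ctl-2 (adjusted p 0.00502) and 0.58 ± 0.09 for ctl-3 (adjusted p 0.000661). In daf-16 mutants ctl-1 went from 45.7 and 44.7 CPM to 50.9 and 63.6, a log2 fold change of 0.34 ± 0.11 (adjusted p 0.0300), and ctl-3 rose by 0.35 ± 0.09 (adjusted p 0.0120). For ctl-2 in daf-16 mutants the value was 0.20 ± 0.11, which did not pass (adjusted p 0.177). Heated libraries lay above unheated ones for each catalase in each strain. Of all genes tested, 33.9%, 34.7% and 34.9% did so in N2, pqm-1 and daf-16. Some of these calls rested on single libraries, while ctl-1 and ctl-3 in pqm-1 mutants passed without any 1 of the 12. Without the heated pqm-1 replicate 2, ctl-2 stood at 0.41 (adjusted p 0.0635). Without the heated daf-16 replicate 3, ctl-1 stood at 0.17 and ctl-3 at 0.25 (adjusted p 0.285 and 0.103). Without the daf-16 20 °C replicate 3, they stood at 0.33 and 0.30 (adjusted p 0.136 and 0.0971), and without the daf-16 20 °C replicate 2 ctl-1 stood at 0.36 (adjusted p 0.0956). Without the heated daf-16 replicate 2, ctl-2 in daf-16 mutants stood at 0.34 and passed (adjusted p 0.0467). DESeq2 did not call ctl-1 in daf-16 mutants (adjusted p 0.0557).

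**Figure D2:**
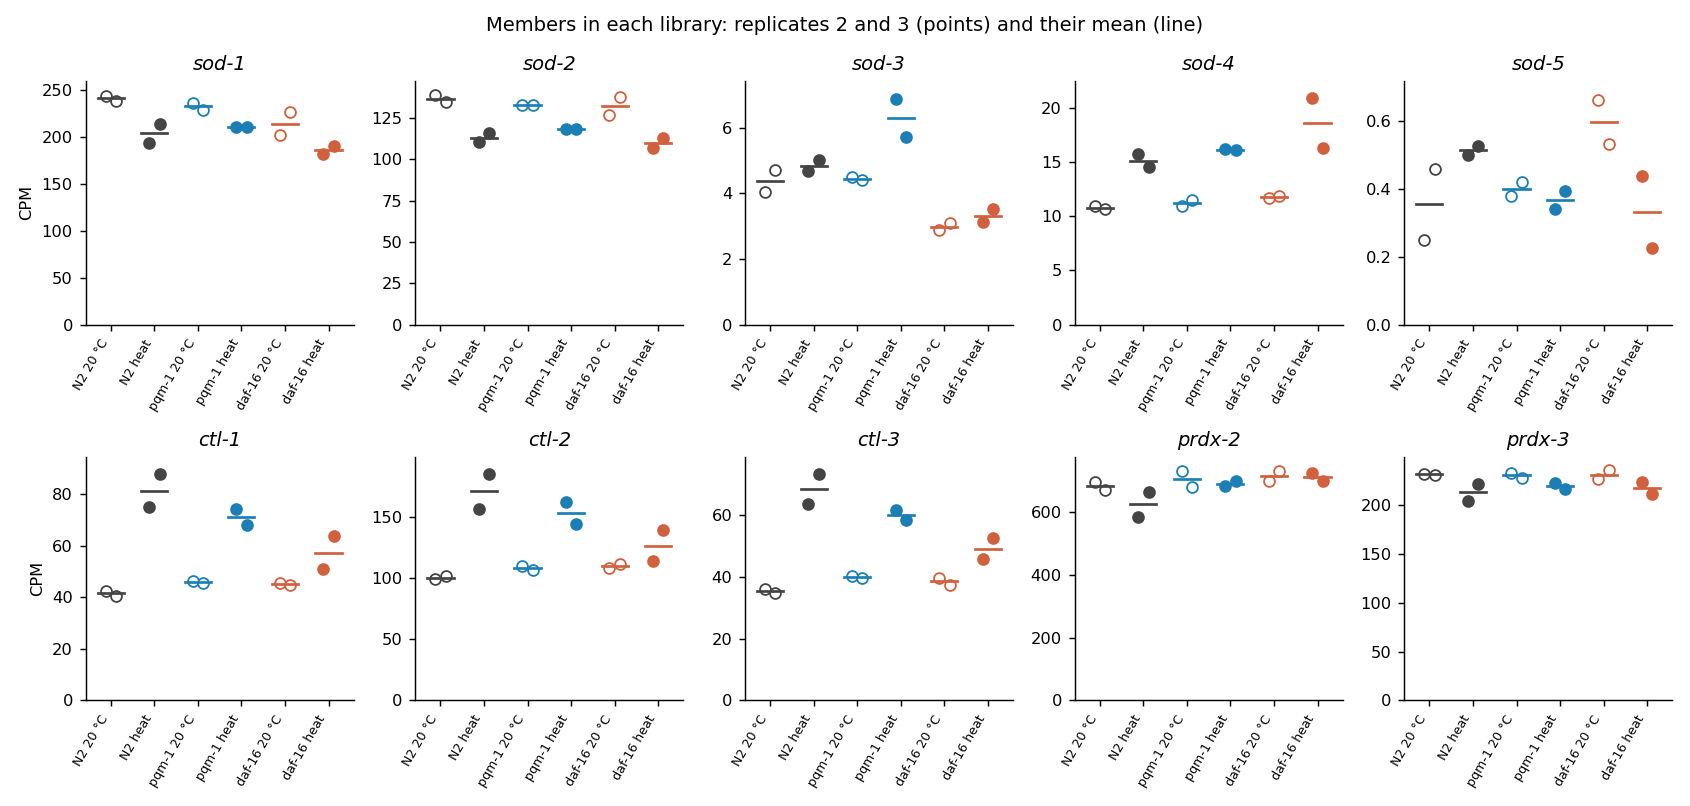
CPM of each member in every library used, 1 panel per gene with its own axis from 0, open points at 20 °C and filled points after heat, with lines at the group means. In N2 the catalases go from 40.6 to 42.6 CPM up to 75.0 to 87.8 CPM for ctl-1, and sod-3 is lowest in the 4 daf-16 libraries.

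Summed over the 3 genes, which removes the question of how shared reads were divided among them, catalase stood at 177 ± 0.712 CPM in N2 at 20 °C and 321 ± 36.3 CPM after heat (SD, n = 2). In pqm-1 mutants the sum went from 194 ± 3.32 to 284 ± 19.4 CPM, and in daf-16 mutants from 194 ± 0.312 to 233 ± 31.8 CPM. Unheated groups thus differed by less than 20 CPM, and the heated group means were ordered N2, pqm-1, daf-16. The heated N2 libraries (295.1 and 346.4 CPM) overlapped the heated pqm-1 libraries (297.7 and 270.2), and both lay above the heated daf-16 libraries (210.2 and 255.1). Within the cluster, ctl-2 made up 56.7% ± 1.06 of the level per length in N2 at 20 °C and 53.4% ± 0.357 after heat, and between 53.2 and 57.8% over all 12 libraries.

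The heated replicates that held less hsp-70 RNA held more catalase RNA in N2 and daf-16. With 2 heated libraries per strain, this order was not tested. In heated N2, hsp-70 stood at 136.1 CPM in replicate 2 and 40.8 CPM in replicate 3, where the catalase sums were 295.1 and 346.4 CPM. In heated daf-16, hsp-70 stood at 341.7 and 96.0 CPM, and the catalase sums were 210.2 and 255.1 CPM. The heated pqm-1 replicates were close in hsp-70, at 104.3 and 108.2 CPM, while their catalase sums were 297.7 and 270.2 CPM. Marker sums of several tissues also differed between heated and unheated libraries. The summed level of the 5 intestine markers was 2096 to 2423 CPM in the 20 °C libraries and 1264 to 1597 CPM in the heated ones, with act-5 and vha-6 lower past the threshold in all 3 strains and ges-1 in daf-16 mutants. The other intestine markers did not pass, with ifb-2 at 0.13, 0.02 and -0.00 and elt-2 at 0.13, -0.11 and -0.61 in N2, pqm-1 and daf-16 (log2 fold change). The 3 yolk genes summed to 18120 to 28576 CPM at 20 °C and 9616 to 15235 CPM after heat. Of these, vit-5 and vit-6 were lower past the threshold in all 3 strains and vit-2 in N2 and pqm-1. The 5 hypodermis markers summed to 2790 to 3286 CPM and 2253 to 2776 CPM. In N2, col-19 was lower and dpy-7 and rol-6 were higher past the threshold, and in daf-16 lin-26 was higher. The 4 muscle markers summed to 7162 to 9177 CPM at 20 °C and 9270 to 10612 CPM after heat, with 3, 0 and 2 of 4 higher past the threshold. The 4 neuron markers summed to 109 to 125 CPM and 135 to 151 CPM, with 1 of 4 higher in each strain. Of all genes, 16.8%, 12.5% and 16.5% were higher past the threshold in N2, pqm-1 and daf-16. In the heated daf-16 libraries the intestine sum was 1597 and 1454 CPM, against 1264 and 1569 CPM in heated N2. The single markers differed in direction. In heated daf-16 against heated N2, ges-1 was lower past the threshold (log2 fold change -0.72, adjusted p 0.0102, edgeR), against 0.56% of all genes lower. The other intestine markers did not pass there, with elt-2 at -0.66, vha-6 at 0.01, ifb-2 at 0.04 and act-5 at 0.27. The part of these differences in the catalase results was not tested.

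Heated daf-16 mutants held less ctl-1 and ctl-3 RNA than heated N2. The log2 fold change was -0.51 ± 0.11 for ctl-1 (adjusted p 0.0459) and -0.48 ± 0.09 for ctl-3 (adjusted p 0.0291), and -0.44 ± 0.11 for ctl-2, which did not pass (adjusted p 0.0851, edgeR). These were 2 of 10 members, both lower, against 1.09% of all genes tested in either direction and 0.56% lower. The heated libraries of the strains did not overlap for any of the 3, and 20.2% of all genes tested were also lower without overlap. At 20 °C the same comparison gave 0.12, 0.13 and 0.12, and no catalase passed. The call after heat for ctl-1 was lost in 10 of the 12 fits that left out 1 library (log2 fold change -0.68 to -0.36, adjusted p 0.00931 to 0.250) and that for ctl-3 in 6 of 12 (-0.59 to -0.38, adjusted p 0.0152 to 0.182). Leaving out a library of groups not compared was enough for this. The values moved toward 0 without the heated N2 replicate 3 (ctl-1 -0.39, ctl-3 -0.38) and without the heated daf-16 replicate 2 (-0.36 and -0.39). They moved away from 0 without the heated N2 replicate 2 (-0.63 and -0.59) and without the heated daf-16 replicate 3 (-0.68 and -0.59). Fitting only these 2 groups gave -0.53 and -0.50 with neither call (adjusted p 0.291 and 0.247), while DESeq2 called all 3 catalases.

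The heat response of the catalases itself was compared between strains. The difference from N2 in log2 fold change was -0.62 ± 0.15 for ctl-1, -0.57 ± 0.15 for ctl-2 and -0.60 ± 0.13 for ctl-3 in daf-16 mutants, and none passed over all genes (adjusted p 0.211, 0.213 and 0.173, with unadjusted p 0.00155, 0.00298 and 0.000588, edgeR). DESeq2 called ctl-3 (adjusted p 0.0376), and edgeR without a filter on low counts called all 3. In pqm-1 mutants the differences were -0.34 ± 0.15, -0.27 ± 0.15 and -0.37 ± 0.13 (adjusted p 0.641, 0.667 and 0.597). Both sets of differences use the same N2 libraries. For these interactions edgeR called 0 of 10 members and 0% of all genes in either strain. At an unadjusted p under 0.05 there were 4 members and 2134 genes for daf-16, and 2 members and 1112 genes for pqm-1. DESeq2 called 1 member and 61 genes for daf-16, and 0 members and 8 genes for pqm-1.

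The constitutive dismutases sod-1 and sod-2 were slightly lower after heat. In N2 sod-1, the main cytosolic dismutase, stood at 244 and 239 CPM at 20 °C and at 193.9 and 214.0 CPM after heat, and it fell by 15.5% (log2 fold change -0.24 ± 0.08, adjusted p 0.0337, edgeR). In N2 sod-2, the main mitochondrial dismutase, stood at 138.9 and 134.8 CPM against 110.4 and 115.8, and it fell by 17.3% (-0.27 ± 0.07, adjusted p 0.0118). The heated libraries lay below the unheated ones for both genes in all 3 strains. Of all genes tested, 33.3%, 33.2% and 30.9% did so in N2, pqm-1 and daf-16. In daf-16 mutants sod-2 fell by 17.1% (-0.27 ± 0.07, adjusted p 0.0132), while sod-1 stood at -0.20 ± 0.08 (adjusted p 0.0781). In pqm-1 mutants the values were -0.14 ± 0.08 for sod-1 and -0.17 ± 0.07 for sod-2 (adjusted p 0.224 and 0.109). The call of sod-1 in N2 was lost in 7 of 12 fits without 1 library (adjusted p up to 0.242), including each of the 4 pqm-1 libraries and both N2 20 °C libraries, and without the heated N2 replicate 2 the value was -0.16. With library size alone as the scaling it was also -0.16 (adjusted p 0.108). The call of sod-2 was lost in N2 without the 20 °C replicate 2 (-0.24) and without the heated replicate 2 (-0.23), and in daf-16 without the 20 °C replicate 3 (-0.21) and without the heated replicate 2 (-0.24). Markers of oocytes were also lower after heat in N2, with 5 of 6 past the threshold, against 17.9% of all genes lower. Their summed levels were 3184 and 2757 CPM at 20 °C against 1578 and 1722 CPM. In pqm-1 mutants 3 of these 6 markers passed, all lower, against 25.2% of all genes in either direction, of which 12.5% of all genes were higher. Their sums there were 2398 and 2372 CPM against 1633 and 1835. In daf-16 mutants 0 of 6 passed in edgeR, against 16.5% of all genes lower, and 0 had an unadjusted p under 0.05. The sums there were 1843 and 2264 CPM against 1473 and 2128, with a median log2 fold change of -0.19. Sperm marker sums were 721 and 769 CPM against 466 and 512 in N2, and 710 and 696 against 452 and 466 in pqm-1 mutants. In daf-16 mutants they were 704 and 787 CPM against 431 and 401. Of these markers msp-10, msp-31 and gsp-3 were lower past the threshold in each strain. In daf-16 mutants spe-11 was too, and spe-9 passed in no strain. The part of the oocyte and sperm markers in the falls of sod-1 and sod-2 was not tested.

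**Figure D3:**
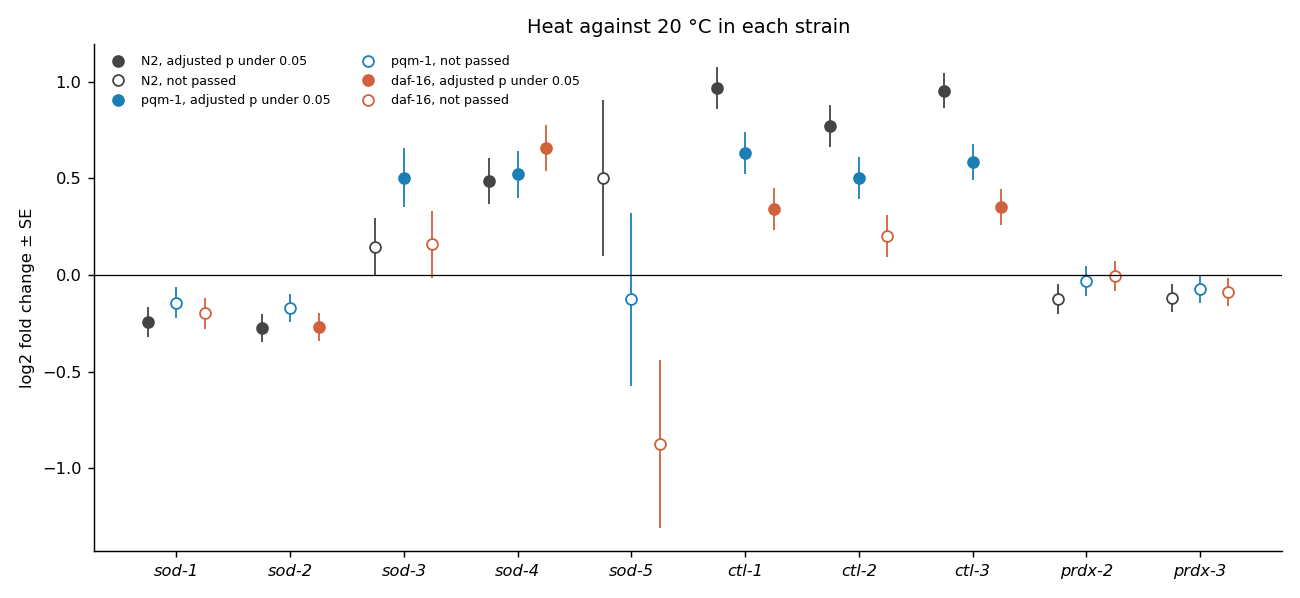
Log2 fold change of each member with heat in N2, pqm-1 and daf-16 (points, ± SE), filled where the adjusted p was under 0.05. The catalases rise in N2 by 0.77 to 0.97, sod-4 rises in all 3 strains, and the peroxiredoxins lie near 0.

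The inducible mitochondrial dismutase gene sod-3 was low in all groups and did not pass the test for heat in N2. It stood at 4.04 and 4.72 CPM in N2 at 20 °C and at 4.67 and 5.03 CPM after heat, and these groups overlapped (log2 fold change 0.15 ± 0.15, adjusted p 0.478). In pqm-1 mutants it stood at 4.50 and 4.40 CPM at 20 °C and at 6.88 and 5.72 CPM after heat, and rose by 0.50 ± 0.15 on the log2 scale (1.42-fold, adjusted p 0.0288, edgeR). That call was lost with DESeq2 (adjusted p 0.148), without the heated pqm-1 replicate 2 (0.36, adjusted p 0.237) and without either pqm-1 library at 20 °C (0.52 and 0.48, adjusted p 0.106 and 0.135). In daf-16 mutants sod-3 stood at 2.88 and 3.09 CPM at 20 °C and at 3.13 and 3.52 CPM after heat (0.16 ± 0.17, adjusted p 0.517). For neither mutant did the heat response differ from that of N2 past the threshold (0.36 ± 0.21 for pqm-1 and 0.01 ± 0.23 for daf-16, adjusted p 0.667 and 0.991).

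The 4 daf-16 libraries held the lowest sod-3 values of the 12, and none overlapped with a library of another strain. Against N2 the difference on the log2 scale was -0.56 ± 0.17 in unheated and -0.54 ± 0.16 in heated worms, a level 32.0% and 31.4% below N2 in the fit, and neither passed over all genes (adjusted p 0.0995 and 0.121, unadjusted p 0.00575 and 0.0049). Over all genes tested, 25.4% at 20 °C and 20.2% after heat were lower in daf-16 than in N2 without overlap, and 22.2% and 21.7% were lower than in pqm-1. Against pqm-1 mutants, sod-3 was lower in daf-16 after heat. The pqm-1 value was higher by 0.92 ± 0.16 on the log2 scale, 1.89-fold (adjusted p 0.0132), and sod-3 was the 1 of 10 members that passed, against 1.11% of all genes in either direction and 0.784% higher. This call was lost without the heated pqm-1 replicate 2 (0.78, adjusted p 0.171), without the heated daf-16 replicate 2 (0.84, adjusted p 0.0950) and when only these 2 groups were fitted (adjusted p 0.107). At 20 °C the value was 0.57 ± 0.17 and did not pass (adjusted p 0.420). As a share of the mitochondrial dismutases per length, sod-3 made up 3.14% ± 0.397 (SD, n = 2) in N2 at 20 °C and 4.17% ± 0.0746 after heat. In pqm-1 mutants the shares were 3.28% ± 0.0490 and 5.11% ± 0.624, and in daf-16 mutants 2.23% ± 0.0205 and 2.97% ± 0.137.

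The extracellular dismutase gene sod-4 rose with heat in each strain. It went from 11.0 and 10.7 CPM to 15.8 and 14.5 in N2, from 11.0 and 11.6 to 16.23 and 16.11 in pqm-1 mutants, and from 11.7 and 11.9 to 20.9 and 16.3 in daf-16 mutants. No heated library overlapped an unheated one in any strain, while 33.9%, 34.7% and 34.9% of all genes tested were higher without overlap. The log2 fold change was 0.48 ± 0.12, 0.52 ± 0.12 and 0.66 ± 0.12 (adjusted p 0.00823, 0.0077 and 0.00136, edgeR), or 1.40-fold, 1.43-fold and 1.58-fold. It held in daf-16 mutants without any 1 library, and was lost in N2 without the heated replicate 2 (0.44, adjusted p 0.0504) and in pqm-1 mutants without the 20 °C replicate 2 (0.48, adjusted p 0.0630). The difference in heat response from N2 did not pass in either mutant (0.04 ± 0.17 for pqm-1 and 0.17 ± 0.17 for daf-16, adjusted p 0.968 and 0.672). Among the dismutases its share per length went from 2.41% ± 0.00580 to 3.96% ± 0.448 in N2 (SD, n = 2).

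The minor cytosolic dismutase gene sod-5 was barely detected. Its counts were 5 and 11 in N2 at 20 °C and 12 and 18 after heat, 8 and 9 against 8 and 8 in pqm-1 mutants, and 14 and 11 against 8 and 5 in daf-16 mutants. In CPM these are 0.226 to 0.662 over the 12 libraries. Heated libraries lay above unheated ones in N2, as for 33.9% of all genes, and below them in daf-16, as for 30.9%. They overlapped in pqm-1 mutants. No change with heat passed the test (0.50 ± 0.40 for N2, -0.13 ± 0.45 for pqm-1 and -0.87 ± 0.44 for daf-16, adjusted p 0.375, 0.885 and 0.146), and at this depth changes of these sizes are not resolved.

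The peroxiredoxins, the most abundant peroxide-removing members per length, did not pass any test. In N2 prdx-2 stood at 696.2 and 669.4 CPM at 20 °C and at 586.2 and 665.2 CPM after heat, without overlap (-0.13 ± 0.08, adjusted p 0.229). In pqm-1 mutants it stood at 732.8 and 681.8 CPM against 683 and 700.4, and in daf-16 at 700.8 and 730.5 against 724.7 and 701.1, both with overlap. The mitochondrial prdx-3 stood at 232.6 and 231 CPM in N2 at 20 °C and at 204.4 and 222.2 CPM after heat (-0.12 ± 0.07, adjusted p 0.222). Its log2 fold change was -0.07 ± 0.07 in pqm-1 mutants and -0.09 ± 0.07 in daf-16. Between strains the largest values were those of prdx-2 after heat, 0.19 ± 0.08 in daf-16 and 0.14 ± 0.08 in pqm-1 against the same N2 libraries (adjusted p 0.247 and 0.824).

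Over the members, 6 of 10 were called for heat in N2 (4 higher, 2 lower), against 34.7% of all genes tested (16.8% higher, 17.9% lower). In pqm-1 mutants 5 of 10 were called, all higher, against 25.2% (12.5% higher), and in daf-16 mutants 4 of 10 (3 higher, 1 lower), against 33.1% (16.5% in each direction). Heated libraries lay wholly above the unheated ones for 5 members in each strain, against 33.9%, 34.7% and 34.9% of all genes in N2, pqm-1 and daf-16. They lay wholly below for 4, 3 and 4 members, against 33.3%, 33.2% and 30.9%. The median log2 fold change of the members was 0.32 in N2, 0.24 in pqm-1 mutants and 0.08 in daf-16 mutants, against 0.02, 0.01 and 0.03 over all genes tested. Since 3 of the members share reads, the counts of members hold fewer separate measurements than they name. As a ratio per length, the catalases stood at 0.174 ± 0.00214 of the dismutases in N2 at 20 °C and 0.368 ± 0.0220 after heat (SD, n = 2). The ratio went from 0.197 ± 0.000533 to 0.314 ± 0.0203 in pqm-1 mutants and from 0.209 ± 0.0144 to 0.284 ± 0.0323 in daf-16 mutants, with no overlap between heated and unheated libraries in any strain.

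No member was called between pqm-1 mutants and N2. At 20 °C 0 of 10 were called by edgeR, 0 at an unadjusted p under 0.05 and 0 by DESeq2, against 0.063% of all genes. The log2 fold changes there lay between -0.05 for sod-1 and 0.18 for ctl-3. After heat 0 of 10 were called by edgeR and 0 by DESeq2, against 0.28% of all genes, and 1 had an unadjusted p under 0.05. That was sod-3 (0.38 ± 0.14, adjusted p 0.646). The catalases stood at -0.20 to -0.16 after heat. Between daf-16 mutants and N2 at 20 °C, 0 of 10 were called by edgeR and 0 by DESeq2, against 2.49% of all genes, with sod-3 the 1 member at an unadjusted p under 0.05. Between the mutants at 20 °C, 0 of 10 were called by edgeR and 0 by DESeq2, against 0.245% of all genes, and 1 had an unadjusted p under 0.05, again sod-3. The libraries of pqm-1 lay wholly above those of N2 for 4 members and below for 2 at 20 °C, against 21.8% and 21.3% of all genes, and for 4 and 3 after heat, against 20.7% and 16.3%. Those of daf-16 lay wholly above N2 for 6 and below for 2 at 20 °C, against 25.6% and 25.4%, and for 2 and 6 after heat, against 21.9% and 20.2%. Those of pqm-1 lay wholly above daf-16 for 2 and below for 2 at 20 °C, against 22.2% and 20.3%, and for 6 and 2 after heat, against 21.7% and 20.8%. A test that did not pass does not show equal levels.

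**Figure D4:**
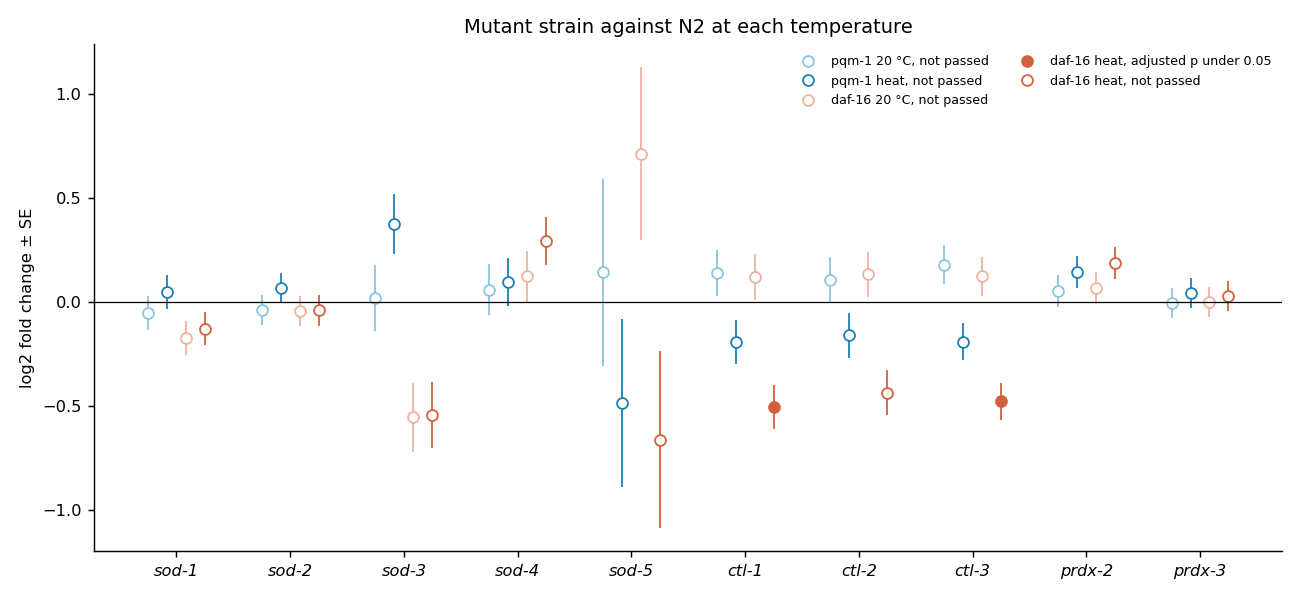
Log2 fold change of each member between each mutant strain and N2, at 20 °C and after heat (points, ± SE), filled where the adjusted p was under 0.05. The 2 filled points are ctl-1 (-0.51) and ctl-3 (-0.48) in daf-16 mutants after heat, and sod-3 lies below 0 in daf-16 mutants at both temperatures.

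The genes whose log2 CPM followed each member most closely over the 12 libraries were found among genes with a mean log2 CPM of at least 1. These are descriptions of libraries that share heat and strain, with no test. For ctl-1 they were ctl-3 (Pearson r 0.996), ctl-2 (0.992) and F46H5.7 (0.964). For ctl-2, beside its neighbours, it was daf-22 (0.964), which encodes the peroxisomal thiolase of ascaroside synthesis. For sod-4 they were Y41D4B.17 (0.993) and the heat-inducible HSP70 genes F44E5.4 and F44E5.5 (both 0.992, with identical counts). For sod-3 the closest was ins-26 (0.949), an insulin-like peptide gene, followed by F31E3.6 (0.918). For sod-1 it was T12D8.10 (0.987) and for sod-2 fbxc-45 (0.985). For prdx-2 it was rps-3A (0.925), for prdx-3 it was ndab-2 (0.951), and for sod-5, at its low counts, ZK354.2 (0.927).

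The genes around the members were described from lists chosen by name. The thioredoxin system supplies electrons to the peroxiredoxins, and 2 of its 10 tested genes were called for heat in each strain (1 higher, 1 lower), against 34.7%, 25.2% and 33.1% of all genes in N2, pqm-1 and daf-16. In N2 trx-3, a thioredoxin gene of the intestine, fell from 13.2 ± 0.365 to 5.37 ± 1.34 CPM (log2 fold change -1.28 ± 0.17, adjusted p 0.000224), and it also fell in pqm-1 mutants (-1.88) and daf-16 mutants (-2.24). The sestrin gene sesn-1 rose in N2 (0.42, adjusted p 0.0122) and stood at 0.14 and 0.23 in the mutants, which did not pass. The thioredoxin gene trx-1, which is known from a pair of sensory neurons, was called higher in both mutants from few reads, with counts of 1 and 2 against 17 and 9 in pqm-1 mutants and of 4 and 2 against 9 and 12 in daf-16. In N2 its counts were 2 and 2 against 10 and 7, which did not pass (adjusted p 0.0713). The median of the list was -0.07, -0.01 and 0.04 in N2, pqm-1 and daf-16.

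In the glutathione system, 8 of 14 tested genes were called in N2 (3 higher, 5 lower), 3 in pqm-1 mutants (2 higher, 1 lower) and 5 in daf-16 mutants (3 higher, 2 lower), against 34.7%, 25.2% and 33.1% of all genes. The glutathione peroxidase gene gpx-7 fell in each strain, by 1.74, 1.68 and 2.14 on the log2 scale, and gpx-3, a further member of that family, rose by 0.58, 0.77 and 0.64. The glutaredoxin gene glrx-10 rose in each strain as well (0.38, 0.34 and 0.54), and glrx-21 fell in N2 (-0.47) and stood at -0.25 and -0.15 in the mutants, which did not pass. The list medians were 0.04, 0.11 and -0.04.

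Peroxisome biogenesis genes, which build the organelle that holds CTL-2, passed for heat in 7 of 11 tested cases in N2 (6 higher, 1 lower), 5 in pqm-1 mutants (4 higher, 1 lower) and 6 in daf-16 mutants (4 higher, 2 lower). Of all genes, 34.7%, 25.2% and 33.1% passed, and 16.8%, 12.5% and 16.5% were higher. Here prx-11, of the family that divides peroxisomes, rose from 8.15 ± 1.23 to 28.3 ± 2.99 CPM in N2 (log2 fold change 1.78 ± 0.12, adjusted p 1.46e-06), by 1.71 in pqm-1 mutants and by 1.82 in daf-16 mutants. The import receptor gene prx-5 rose by 0.78, 0.61 and 0.77, and the docking factor gene prx-13 by 0.51, 0.59 and 0.72. The list medians were 0.39, 0.23 and 0.30, against 0.02, 0.01 and 0.03 over all genes. No gene of this list was called between either mutant and N2 at either temperature, or for a difference in heat response from N2.

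**Figure D5:**
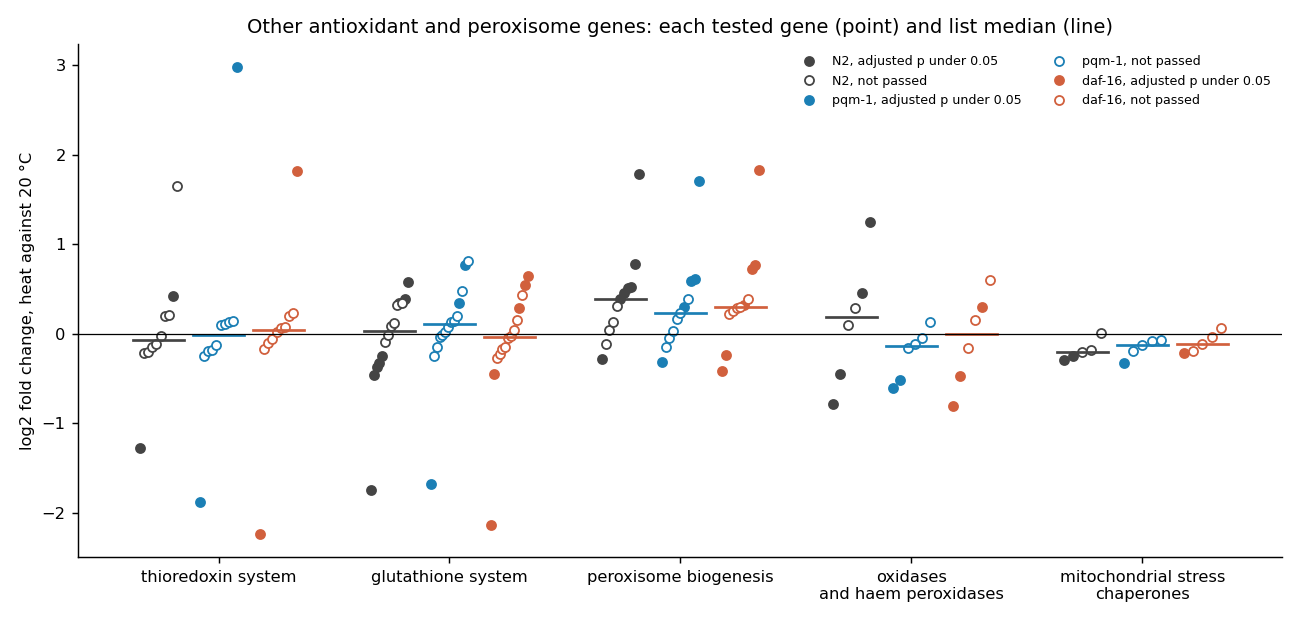
Log2 fold change with heat of each tested gene of 5 lists of antioxidant and peroxisome genes in N2, pqm-1 and daf-16 (points, filled where the adjusted p was under 0.05), with a line at each list's median. The peroxisome list has medians of 0.39, 0.23 and 0.30, and prx-11 is its highest point in each strain.

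Oxidases and haem peroxidases, some of which make hydrogen peroxide at the cuticle, were called in 4 of 6 tested cases in N2 (2 higher, 2 lower), 2 in pqm-1 mutants (both lower) and 3 in daf-16 mutants (1 higher, 2 lower), against 34.7%, 25.2% and 33.1% of all genes. The peroxidase genes skpo-1 (-0.78, -0.60 and -0.47) and skpo-3 (-0.45, -0.52 and -0.81) fell in each strain. Their relative skpo-2 rose in N2 (0.45) and daf-16 mutants (0.30) and stood at 0.13 in pqm-1 mutants, which did not pass. The dual oxidase gene duox-2 rose in N2 (1.25, adjusted p 0.0153). It stood at -0.16 in pqm-1 mutants and 0.60 in daf-16 mutants, with overlap and past no threshold (adjusted p 0.797 and 0.189). It is a close copy of bli-3, so its level is uncertain. Its list had medians of 0.19, -0.13 and -0.01. Of 5 tested mitochondrial stress genes, 2, 1 and 1 were called, all lower, against the same shares of all genes. The chaperone gene hsp-6 of this list was not analysed here. The chaperonin gene hsp-60 fell in each strain (-0.29, -0.32 and -0.22), and the protease gene clpp-1 fell in N2 (-0.25) and stood at -0.08 and -0.19 in the mutants, which did not pass. That list had medians of -0.21, -0.12 and -0.11.

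Among 13 regulators of these genes, 3 were called for heat in N2 (2 higher, 1 lower), 5 in pqm-1 mutants and 5 in daf-16 mutants (4 higher, 1 lower in each), against 34.7%, 25.2% and 33.1% of all genes. The p38 kinase gene pmk-1 (0.65, 0.53 and 0.53) and the TFEB homologue gene hlh-30 (0.49, 0.32 and 0.53) rose in each strain, and atfs-1, which encodes the factor of the mitochondrial unfolded protein response, fell (-0.57, -0.37 and -0.23). The row of pqm-1 rose in pqm-1 mutants (0.85) and daf-16 mutants (0.84). In N2 it stood at 0.38 without overlap, which did not pass (adjusted p 0.103), and neither difference from N2 passed (adjusted p 0.660 and 0.390, edgeR). The median of this list was 0.08, -0.08 and 0.11. The row of skn-1, which encodes the NRF factor of the oxidative stress response, did not pass (-0.21, -0.13 and 0.11).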

How the data were processed

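The authors deposited estimated counts for each RefSeq transcript, of which 13.3% of the non-zero values are not whole. The authors' aligner, counter, strand setting and genome build are not given in the sources used here, so no coordinates are printed. The first value column matches the coding length of the annotation for 95.7% of 12369 genes with 1 transcript (at most 0.0323% for the 17 count columns) and was used as transcript length. If the header lacks a name for it, replicate 1 libraries may belong to another group. The libraries labelled replicate 2 and 3 keep their group under both readings. Rows were matched by accession to the RefSeq annotation of WBcel235 (45910 of 50755). Unmatched rows held 23.4 to 24.3% of the counts. The transcript with the highest mean stood for each gene, rounded to whole counts.

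Tests used edgeR 4.0.16 (R 4.3.3) with TMM scaling, a low-count filter (filterByExpr), 6 group means with 6 residual degrees of freedom, the quasi-likelihood F-test and Benjamini-Hochberg adjustment over 14278 genes, called at 0.05. The SE is the absolute log2 fold change divided by the square root of F. Of 11 comparisons 2 were interactions. The fits were also tested on simulated data. Members and lists were chosen with earlier results of these data known. Named genes were the members, at most 4 called genes per list and comparison, and the 3 most alike genes. Alternatives were DESeq2 1.42.0, other scalings and filters, other transcripts or rows, fits of the compared groups alone, a fold threshold, a block for the replicate number, all count columns by header names, and leaving out each library. Figures were drawn with matplotlib 3.10.9.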

Additional observations from a re-analysis of the deposited data

Results flagged for a closer look

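For sod-5, every heated N2 library lay above the unheated ones, as for 33.9% of all genes, and every heated daf-16 library below, as for 30.9%. Neither change passed (adjusted p 0.375 and 0.146, edgeR). The test of this difference gave -1.38 ± 0.59 in log2 units, which was not past the threshold (edgeR, unadjusted p 0.0391, adjusted p 0.315), from counts of 5 to 18.

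The replicate 1 libraries, which no comparison uses, held heat-responsive RNA where their labels give 20 °C. These are the libraries labelled N2 and pqm-1 at 20 °C. Scaled to plain library size, their CPM of hsp-16.2 were 208.7 and 324.3. In the N2 one, sod-4 stood at 15.2, ctl-1 at 65.2, ctl-2 at 138.1 and ctl-3 at 53.1 CPM. In the pqm-1 one, sod-3 stood at 6.34, sod-4 at 14.7, ctl-1 at 85.1, ctl-2 at 175.9 and ctl-3 at 71.6 CPM. Each value lies above all 20 °C libraries used, whose highest values on this scale were 0.420 CPM for hsp-16.2, 4.71 for sod-3, 11.5 for sod-4, 45.3 for ctl-1, 108.3 for ctl-2 and 39.4 for ctl-3.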

How the results depend on the processing

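Direction was kept by every called member in every alternative, including leaving out each library, where the lone sample left in a group is assumed to vary like the others. Counts of called members depended on the fit. All count columns by header names gave 0 for heat in N2, pqm-1 and daf-16, for daf-16 against N2 after heat and for pqm-1 against daf-16 after heat, and so did a fold threshold of 1 on the log2 scale. Only the groups compared gave 2 for heat in daf-16 and 0 for daf-16 against N2 and for pqm-1 against daf-16 after heat. Keeping unmatched rows gave 1 for daf-16 against N2 after heat. For the daf-16 interaction, DESeq2 called 1 and no filter on low counts called 3, the catalases. Without 1 library the counts were 3 to 6 for heat in N2 (3 without its heated replicate 2), 3 to 5 in pqm-1 (3 without its replicate 2 at either temperature), 1 to 4 in daf-16 (1 without its 20 °C replicate 3, 2 without its heated replicate 3), 0 to 3 for daf-16 against N2 after heat, 0 to 1 for pqm-1 against daf-16 after heat, and 0 elsewhere. The cause was not tested beyond fewer samples. Of all genes, the interactions gave 794 calls for daf-16 and 284 for pqm-1 without a filter, against 0. The replicate block changed no count of members (6, 5 and 4 for heat, 2 and 1 after heat). Deviations of same-numbered libraries correlated from -0.242 to 0.217 between groups, with no common sign. With 2 libraries per group this cannot decide whether the numbers pair the samples. Depth limits sod-5 most, with 5 to 18 counts per library.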

Other observations

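The libraries labelled replicate 1 after heat held little heat shock RNA. Scaled to plain library size, those labelled N2, pqm-1 and daf-16 held hsp-16.2 at 0.417, 0.0391 and 0.256 CPM. The 20 °C libraries used held 0.0461 to 0.420 CPM and the heated ones 263.4 to 564.4 CPM. Members in these replicate 1 libraries lay inside or outside the ranges of the libraries used, depending on the gene. Scaled to plain library size, those labelled N2, pqm-1 and daf-16 held ctl-1 at 45.0, 49.9 and 37.1 CPM, against 40.6 to 45.3 CPM in the 20 °C libraries used and 49.8 to 89.9 CPM in the heated ones. In the same 3 libraries sod-4 stood at 10.0, 12.0 and 9.50 CPM, against 10.6 to 11.5 CPM and 14.9 to 20.5 CPM. Their sod-3 values were 5.63, 4.54 and 2.98 CPM, and their sod-2 values were 138.4, 152.2 and 121.6 CPM, against 125.6 to 134.7 CPM at 20 °C and 104.7 to 121.5 CPM after heat in the libraries used. Of the replicate 1 libraries, the one labelled N2 at 20 °C was lowest in sod-3, with 2.04 CPM, against 2.85 to 4.71 CPM in the 20 °C libraries used and 3.06 to 7.05 CPM in the heated ones.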
